A study of Rattus norvegicus with 30 samples.

Results

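The genes described here encode the pore-forming and accessory subunits of potassium channels, that is, every rat gene whose symbol starts with Kcn followed by a further letter. Array probes were assigned to them through the transcript accession that each probe carries, and 122 probes represented 91 such genes. One probe stood for each gene, the brightest, and 56 of the 91 genes were tested because the scanner marked that probe as well above background in 4 or 5 of the 5 hearts of some group. The other 35 did not reach that mark in any group. The 56 stand among 18332 tested genes on the arrays.

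The study asked how ex vivo reperfusion, its glucose supply and a high-sucrose diet alter transcript levels in the rat heart. Left ventricles came from male Sprague Dawley rats, 16 to 18 weeks old, and each of 30 hearts was hybridised to a one-colour Agilent array of its own. Perfused hearts were arrested in the cold and then worked for 60 min on a warm, oxygenated buffer, whereas non-perfused hearts were dissected and frozen straight after excision into ice-cold buffer. The 6 groups of 5 hearts were chow-fed rats perfused with 25 mmol/L mannitol (named chow mannitol here), chow-fed rats perfused with 25 mmol/L glucose (chow glucose), rats kept 8 to 10 weeks on high sucrose and perfused with mannitol (sucrose mannitol) or with glucose (sucrose glucose), and non-perfused hearts of the chow-fed and the sucrose-fed rats (chow non-perfused and sucrose non-perfused). Both perfusion buffers also held 2.5 mmol/L calcium, 2 mmol/L propionate and ketone bodies (10 mmol/L hydroxybutyrate with 1 mmol/L acetoacetate), so the mannitol hearts lacked glucose but not fuel. Mannitol, a sugar alcohol, was the osmotic control for glucose, and the high-sucrose diet is labelled as a model of insulin resistance.

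Potassium channels carry the outward currents that end the cardiac action potential and set the resting potential of the muscle cell. Voltage-gated channels open during depolarisation, inward rectifiers hold the resting potential or sense ATP and G proteins, two-pore channels leak at rest and respond to stretch, acid or lipids, and calcium-activated channels couple internal calcium to the membrane. Accessory subunits bind the pores and alter their trafficking or gating, and in vessels several of the same families set the tone of smooth muscle.

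The arrays differed in how much they resolved, with 48.8% to 75.4% of probes well above background and no probe saturated. Negative control spots were noisiest on 4 arrays (chow non-perfused 2, sucrose non-perfused 1 and 5, sucrose mannitol 5), and sucrose mannitol 1 was the only array of its slide. All non-perfused and all chow mannitol arrays lay in the first row of their slides and all glucose arrays in the second, so slide row cannot be told apart from perfusion with glucose; 4 of 5 sucrose mannitol arrays also lay in the second row. Chow mannitol against chow non-perfused is thus the only perfusion comparison within 1 row. Ventricular muscle markers were above background on all 30 arrays and 0 of 7 passed the test for perfusion. Levels below are a percentage of the array's own 75th-percentile probe signal, changes are differences of log2 levels, and a gene was called where limma's moderated test gave an adjusted p (Benjamini-Hochberg over all 18332 genes) under 0.05.

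Detection differed by channel family. Of 29 genes for voltage-gated pores, 16 were tested and 9 were above background on all 30 arrays, among them Kcnd2, Kcna4, Kcnh2 and Kcnq1, pores of known repolarising currents. Of the 10 modifier pores, which do not conduct alone but alter a partner pore, 6 were tested. The accessory subunits had 9 of 13 genes tested but only Kcnip2 and Kcne4 above background on every array. Among inward rectifiers 8 of 15 were tested, and Kcnj3, Kcnj5, Kcnj8, Kcnj11, Kcnj12 and Kcnj14 were above background on all arrays. The two-pore family had 8 of 13 genes tested and the calcium- or sodium-activated family 9 of 11.

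In all, 29 genes were above background on all 30 arrays and 39 met the detection mark in all 6 groups. Another 6 met it in 1 group only, and in 4 of these (Kcne3, Kcnj2, Kcnmb1 and Kcnt1) that group was chow non-perfused. For a gene that enters the test through 1 group only, the filter favours a higher level in that group. The counts of calls below include such genes, Kcne3 among them. Kcnj2, a classical inward rectifier of ventricular muscle, was above background on only 17 of 30 arrays with the probe used, at 1.46% to 4.34%. Kcnj4 and Kcnn2, an inward rectifier and a calcium-activated channel of the heart, were above background on 5 and 8 arrays and were not tested.

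**Figure D1:**
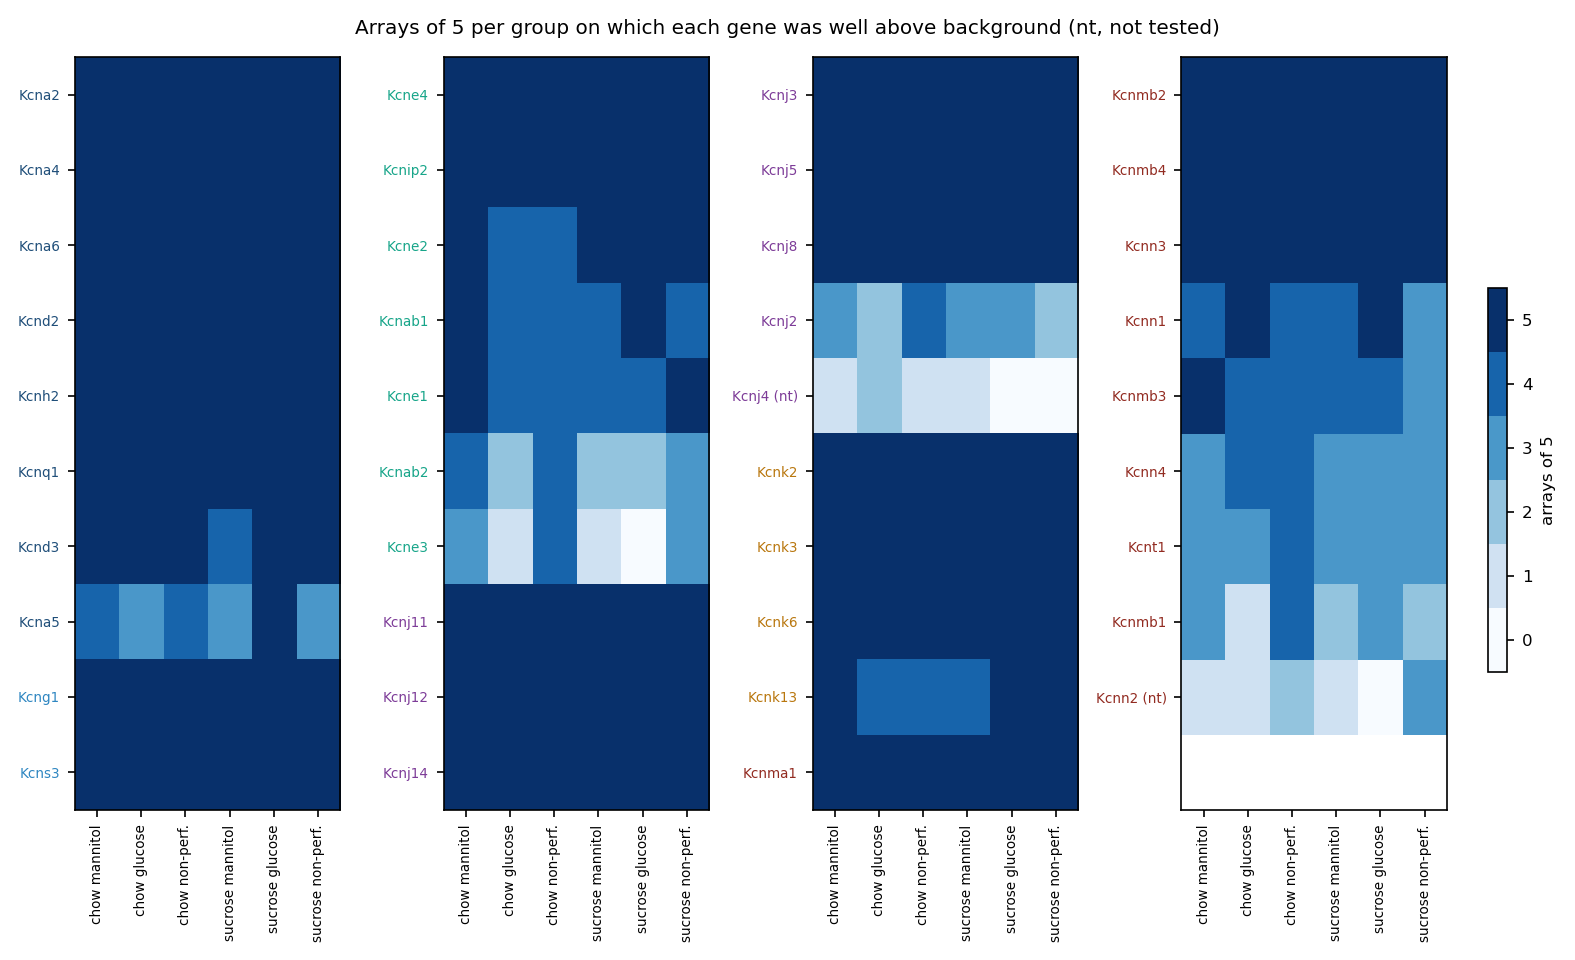
Number of arrays, of 5 in each group, on which the probe of each potassium channel gene named in the text was well above background; columns are groups, label colours mark the 6 channel families, and nt marks genes not tested. The darkest rows are genes seen on all 30 arrays, and Kcne3 has 0 arrays in sucrose glucose hearts, against 3 in sucrose non-perfused hearts.

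Perfusion was compared first over both diets and both buffers, as the mean of the 4 perfused groups minus the mean of the 2 non-perfused groups (20 arrays against 10). In all, 8 potassium channel genes were called, 1 higher and 7 lower: Kcns3, a modifier pore, rose, and Kcne3, Kcnmb4, Kcna2, Kcnk2, Kcnk6 and Kcnj12 were among those that fell. Kcnmb4 was 1.41-fold and Kcna2 1.40-fold lower, Kcns3 1.36-fold higher, and Kcnk2, Kcnk6 and Kcnj12 between 1.18-fold and 1.24-fold lower. Kcne3 measured 2.27-fold lower, but its probe was above background on only 5 of 20 perfused arrays and 7 of 10 non-perfused arrays, so the size of its fall is uncertain. The 8 called genes are 14.3% of the 56, against 22.3% of all tested genes (10.1% higher and 12.2% lower), and 14 of the 56 had an unadjusted p under 0.05, against 32.7% of all. The median change of the 56 was -0.02, against -0.04 over all genes, and their median absolute change was 0.12, against 0.12. With the authors' own deposited values in place of the scanner values, 2 of the 8 were called, Kcna2 and Kcne3.

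**Figure D2:**
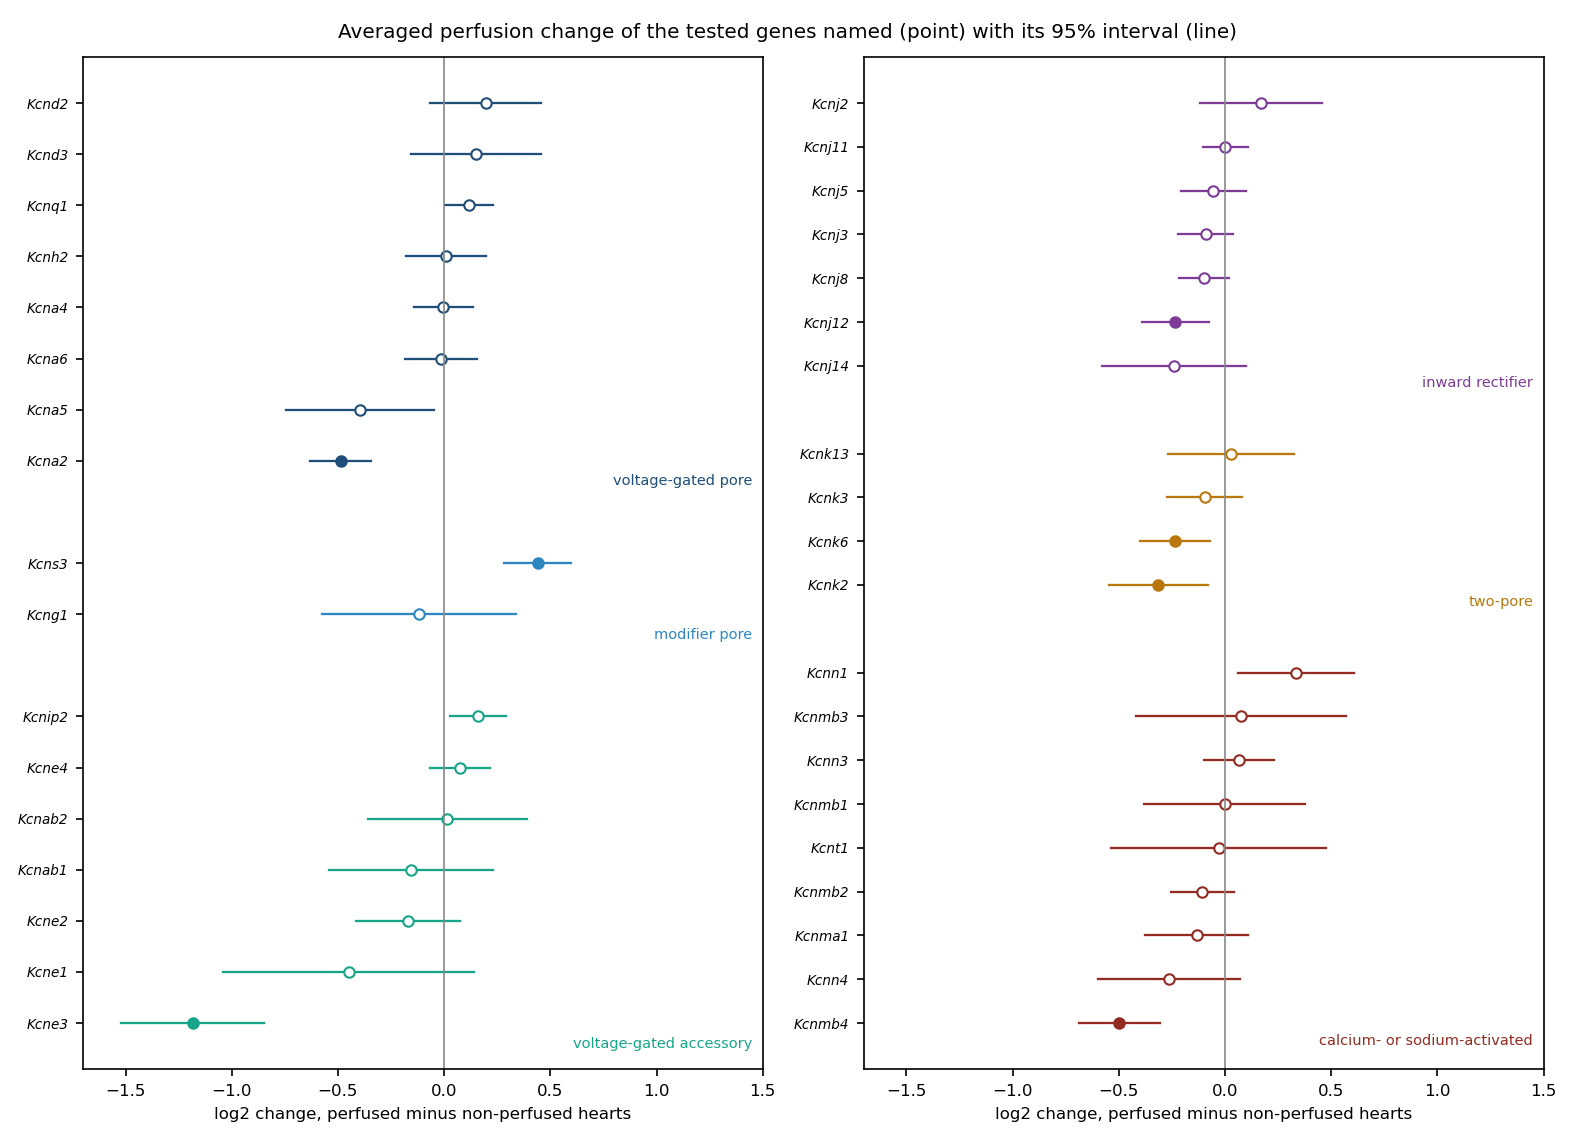
Averaged perfusion change (points, log2, perfused minus non-perfused hearts, 20 against 10 arrays) and its 95% interval (lines) for the tested genes named in the text, by channel family; filled points passed the adjusted threshold. Most points lie within 0.5 of 0, and Kcne3 at -1.18 lies farthest out.

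Kcne3 encodes a small single-pass subunit that binds voltage-gated pores and, with the Kcnq1 pore, keeps that channel open. Its level (probe A_44_P353739) was 1.14%, 1.31%, 1.91%, 1.29% and 1.91% in chow mannitol hearts and 1.17%, 1.00%, 1.30%, 3.26% and 1.36% in chow glucose hearts, against 4.35%, 3.64%, 3.32%, 4.23% and 3.07% in chow non-perfused hearts. In sucrose-fed rats it was 2.90%, 3.18%, 1.45%, 1.65% and 2.44% with mannitol and 1.36%, 1.14%, 1.56%, 0.788% and 1.52% with glucose, against 2.93%, 3.42%, 3.50%, 5.01% and 2.62% without perfusion. The chow mannitol and the sucrose glucose hearts all lay below the non-perfused hearts of their diet, 1 chow glucose heart reached into the non-perfused range, and the sucrose mannitol hearts overlapped it.

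These levels were at the edge of detection: the probe was above background on 3 of 5 chow mannitol arrays, 1 of 5 in each of the chow glucose and sucrose mannitol groups and 0 of 5 sucrose glucose arrays, against 4 in chow non-perfused and 3 in sucrose non-perfused hearts. The averaged change was -1.18 (SE 0.16, adjusted p = 2.82e-06), and the changes within each of the 4 slides that held both kinds of heart ran between -1.45 and -0.94. Because Kcne3 entered the test through chow non-perfused hearts alone, a fall against that group was favoured by the filter. With normexp background correction, which compresses dim signals, the averaged change was smaller, -0.27, and still called (adjusted p = 2.42e-05).

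Kcna2 encodes a delayed rectifier pore of nerve and muscle. Its level (probe A_44_P217295) was 23.9%, 33.5%, 26.1%, 32.9% and 30.8% in chow mannitol hearts and 32.0%, 24.3%, 25.6%, 26.7% and 27.4% in chow glucose hearts, against 46.8%, 45.1%, 36.4%, 43.2% and 39.9% in chow non-perfused hearts. In sucrose-fed rats it was 25.0%, 29.3%, 26.9%, 28.1% and 29.3% with mannitol and 26.1%, 24.7%, 26.3%, 24.3% and 24.8% with glucose, against 38.0%, 33.0%, 46.3%, 26.4% and 32.3% without perfusion. Every perfused chow heart lay below every non-perfused chow heart, and so did every sucrose glucose heart against its diet's non-perfused hearts, while 1 sucrose non-perfused heart (26.4%) fell among the sucrose mannitol hearts. The averaged change was -0.49 (SE 0.07, adjusted p = 5.33e-06), between -0.64 and -0.31 within slides.

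Kcnmb4 encodes an accessory subunit of the large-conductance calcium-activated channel and is best known from neurons. Its level (probe A_64_P147214) was 16.6%, 14.7%, 13.4%, 14.6% and 15.1% in chow mannitol hearts and 16.0%, 17.5%, 16.9%, 12.7% and 13.3% in chow glucose hearts, against 22.8%, 15.8%, 21.05%, 23.7% and 19.2% in chow non-perfused hearts. In sucrose-fed rats it was 21.4%, 15.9%, 14.2%, 15.8% and 11.9% with mannitol and 10.4%, 16.2%, 14.2%, 15.6% and 15.1% with glucose, against 26.4%, 23.2%, 23.9%, 15.7% and 21.5% without perfusion. In each diet 1 non-perfused heart lay inside the perfused range and the other 4 lay above all perfused hearts. The averaged change was -0.50 (SE 0.09, adjusted p = 0.000182), between -0.84 and -0.29 within slides. The pore that this subunit joins, Kcnma1, was at -0.13 (SE 0.12, adjusted p = 0.484), and the other accessory subunits tested, Kcnmb1, Kcnmb2 and Kcnmb3, were not called.

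Kcns3 encodes a silent pore that joins conducting voltage-gated pores and slows their closing. Its level (probe A_44_P416938) was 18.0%, 20.6%, 24.7%, 17.7% and 22.1% in chow mannitol hearts and 20.0%, 25.8%, 21.8%, 20.0% and 24.5% in chow glucose hearts, against 19.3%, 15.0%, 21.5%, 19.4% and 15.4% in chow non-perfused hearts. In sucrose-fed rats it was 24.1%, 20.0%, 19.5%, 18.8% and 23.5% with mannitol and 31.1%, 24.6%, 24.0%, 20.0% and 24.4% with glucose, against 15.1%, 17.2%, 14.3%, 15.3% and 12.2% without perfusion. All perfused sucrose hearts lay above all non-perfused sucrose hearts, whereas the chow groups overlapped. The averaged change was 0.44 (SE 0.08, adjusted p = 7.53e-05), between 0.14 and 0.64 within slides.

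**Figure D3:**
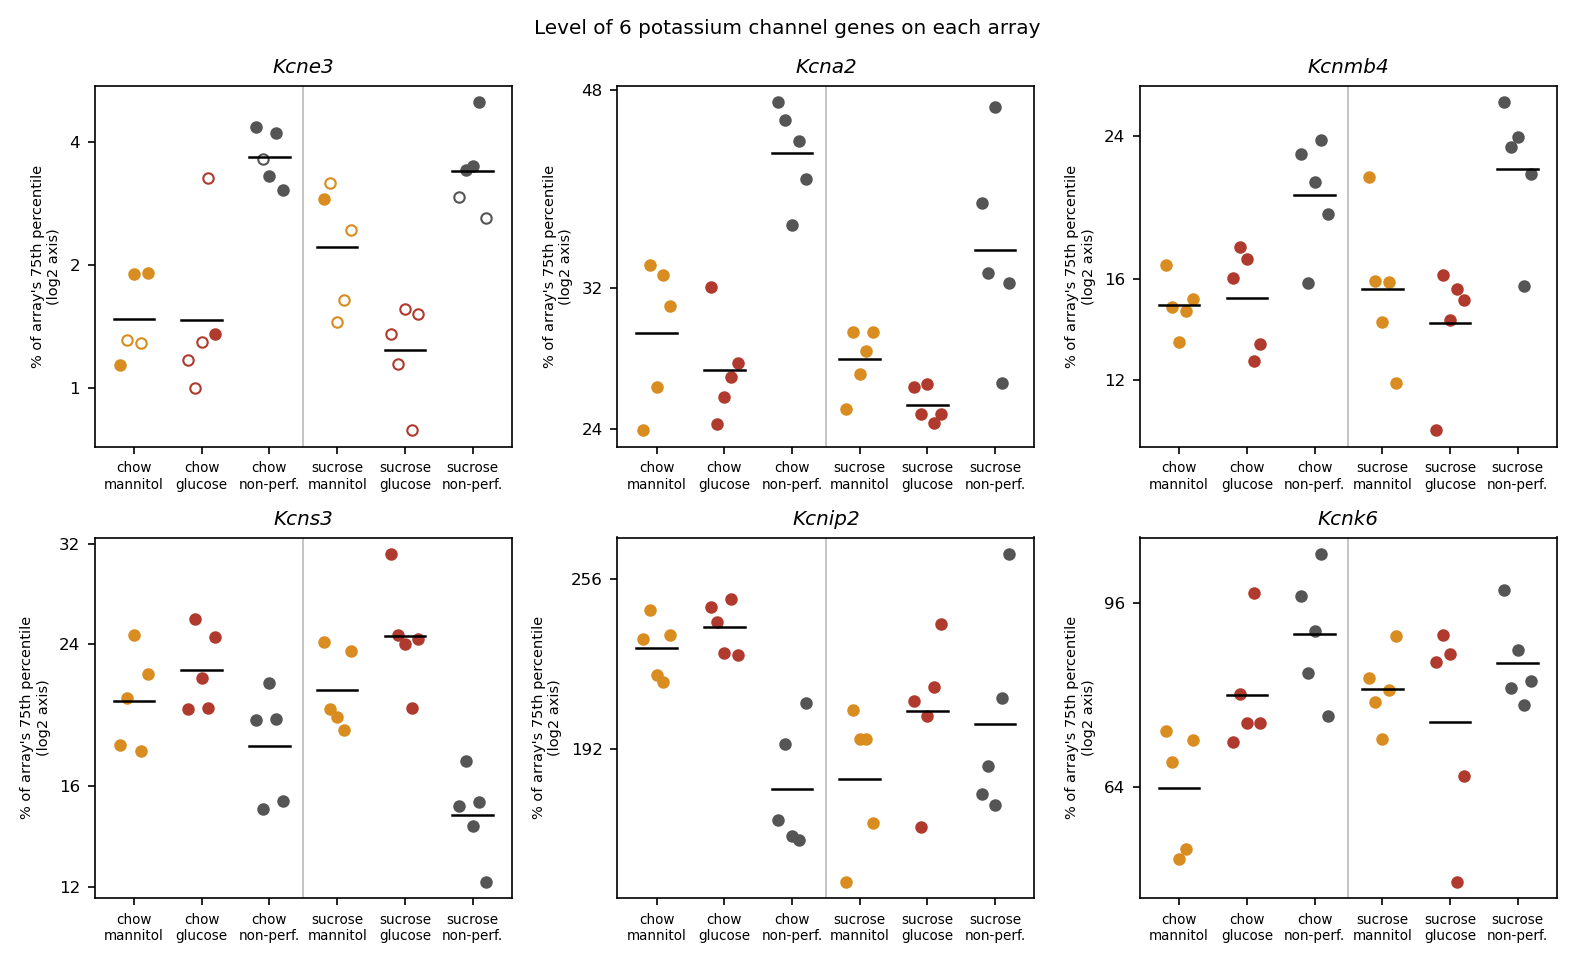
Level of 6 potassium channel genes on each of the 30 arrays, as a percentage of the array's 75th-percentile signal on a log2 axis; perfused groups stand left of the non-perfused group of their diet, filled points are above background, open points are not, and bars are geometric means of 5 arrays. Kcne3, Kcna2 and Kcnmb4 are lower in perfused hearts and Kcns3 higher, and most Kcne3 points of perfused hearts are open.

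The sequences upstream of these 4 genes are shown only because their calls had the smallest averaged adjusted p. Each is the 250 bases before an annotated transcription start in RefSeq's GRCr8 assembly, written 5′ to 3′ on the strand of the gene, with capitals marking matches to the GC box (GGGCGG on either strand). The positions are chr1:163935785-163936034 (plus strand) for Kcne3, chr2:197393280-197393529 (plus strand) for Kcna2, chr7:54005102-54005351 (minus strand) for Kcnmb4 and chr6:39584106-39584355 (minus strand) for one of 2 annotated starts of Kcns3.
Kcne3: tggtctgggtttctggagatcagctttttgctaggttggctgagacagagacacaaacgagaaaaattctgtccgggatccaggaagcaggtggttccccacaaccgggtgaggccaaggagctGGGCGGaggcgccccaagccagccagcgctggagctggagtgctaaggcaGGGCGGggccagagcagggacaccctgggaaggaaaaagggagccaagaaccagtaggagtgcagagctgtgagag
Kcna2: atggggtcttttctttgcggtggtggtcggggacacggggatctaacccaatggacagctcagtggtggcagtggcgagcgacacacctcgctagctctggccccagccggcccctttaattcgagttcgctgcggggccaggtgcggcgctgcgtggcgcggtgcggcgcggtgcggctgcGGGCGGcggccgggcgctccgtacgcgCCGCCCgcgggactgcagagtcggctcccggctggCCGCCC
Kcnmb4: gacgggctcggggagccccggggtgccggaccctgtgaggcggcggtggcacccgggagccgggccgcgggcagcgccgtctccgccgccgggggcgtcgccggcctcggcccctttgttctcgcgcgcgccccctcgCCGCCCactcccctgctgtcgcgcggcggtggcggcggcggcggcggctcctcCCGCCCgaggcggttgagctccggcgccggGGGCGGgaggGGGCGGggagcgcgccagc
Kcns3: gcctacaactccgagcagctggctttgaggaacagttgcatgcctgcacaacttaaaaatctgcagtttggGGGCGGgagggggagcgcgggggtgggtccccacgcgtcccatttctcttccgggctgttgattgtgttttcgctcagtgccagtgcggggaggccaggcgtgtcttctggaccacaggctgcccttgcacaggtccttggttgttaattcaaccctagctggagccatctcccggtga

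The GC box, a general binding motif of housekeeping promoters, occurred 2 times upstream of Kcne3, 3 times upstream of Kcna2 and 4 times upstream of Kcnmb4, and 1 and 2 times upstream of the annotated starts of Kcns3. GC content was 59.6%, 72.4%, 84.4% and 59.2% in the windows printed. Over the 41 annotated starts of the 37 tested potassium channel genes that have a promoter entry, 48.8% held a GC box, against 30.5% of 33469 promoters of all genes. The TATA box (TATAAA) occurred in 0% of the 41, against 12.9% of all promoters. The AP-1 site (TGANTCA) occurred in 2.44%, against 6.34%. The cyclic AMP response element (TGACGTCA) occurred in 0%, against 1.59%. The E box (CACGTG) occurred in 4.88%, against 5.59%. The EGR site (GCGGGGGCG), which can overlap a GC box, occurred in 4.88%, against 2.45%. Both strands were searched and these 5 motifs were not found in the windows printed; the counts are of letters, not of binding.

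Kcnk2 encodes a stretch- and lipid-sensitive leak channel and Kcnk6 a related leak channel of weak inward rectification. Kcnk2 was 196% to 241% and 148% to 244% in chow mannitol and chow glucose hearts, against 216% to 366% in chow non-perfused hearts, with an averaged change of -0.31 (SE 0.11, adjusted p = 0.0474). This call lay close to the threshold. It was lost when any of 20 of the 30 arrays was left out, with an adjusted p of 0.117 at the highest. At 506%, 1 sucrose non-perfused heart stood above all others. Second probes of a gene were tested in a separate fit by probe, with its own adjustment. There, a pair of dimmer Kcnk2 probes for another transcript gave 0.15 and -0.13, neither called. Kcnk6 fell by 0.24 (SE 0.08, adjusted p = 0.0322).

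Kcnj12, which shares the classical inward rectifier current with Kcnj2, fell by 0.23 (SE 0.08, adjusted p = 0.0287). Its level was 37.2% to 47.0% in chow mannitol, 32.3% to 53.0% in chow glucose, 32.9% to 50.4% in sucrose mannitol and 39.2% to 43.9% in sucrose glucose hearts, against 41.3% to 57.8% in chow and 43.8% to 55.1% in sucrose non-perfused hearts. Perfused and non-perfused hearts overlapped in both diets. Kcnj2 itself stood at 0.17 on average, in the other direction, and was not called, with its probe above background on 17 of 30 arrays. Leaving out 1 array ended the Kcnj12 call for 4 of 30 arrays and the Kcnk6 call for 4 of 30, all of them non-perfused (Kcnj12: chow 1 and 4, sucrose 2 and 3; Kcnk6: chow 1 and 4, sucrose 1 and 3).

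Chow mannitol hearts differed from chow non-perfused hearts in 5 of the 56 genes, 8.93% against a background of 8.47% of all tested genes (4.83% higher, 3.64% lower). At an unadjusted p under 0.05 there were 8, against 19.5% of all. Kcnip2 rose, and Kcne3, Kcnn4, Kcna2 and Kcnk6 fell, and in 6 genes (these 5 and the sodium-activated Kcnt1, which was not called) the 5 perfused and 5 non-perfused values did not overlap, against 9.43% of all tested genes. Kcnip2 encodes the calcium-binding subunit that brings the transient outward pores Kcnd2 and Kcnd3 to the membrane. Its level (probe A_44_P468380) was 231%, 243%, 218%, 215% and 233% in chow mannitol hearts, against 170%, 194%, 166%, 165% and 208% in chow non-perfused hearts, a change of 0.34 (SE 0.10, adjusted p = 0.0392). All mannitol hearts lay above all non-perfused hearts.

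Kcnk6 was 72.4%, 67.6%, 54.7%, 55.9% and 71.0% in chow mannitol hearts, against 97.3%, 82.2%, 90.2%, 107% and 74.9% in chow non-perfused hearts, a change of -0.49 (SE 0.13, adjusted p = 0.016). Kcnn4 encodes the intermediate-conductance calcium-activated channel of endothelium and blood cells. Its level was 4.00%, 2.34%, 3.22%, 1.81% and 2.39% in chow mannitol hearts, with 3 of 5 arrays above background, against 4.78%, 4.34%, 4.54%, 5.97% and 4.26% in chow non-perfused hearts, with 4 of 5. The mannitol hearts lay lower without overlap, at -0.84 (SE 0.27, adjusted p = 0.0466). A dimmer second Kcnn4 probe gave -1.09 in the same comparison and -0.62 on average, both called in the fit by probe. Kcna2 changed by -0.53 (adjusted p = 0.00255), and Kcne3 stood at -1.32 (adjusted p = 0.00129) with 3 of 5 mannitol arrays above background, against 4 of 5 non-perfused arrays.

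Calls in this comparison near the threshold did not survive the loss of single arrays. Kcnn4 was lost in 8 of 10 omissions (adjusted p up to 0.150), Kcnip2 in 7 of 10 (up to 0.100) and Kcnk6 in 3 of 10 (chow non-perfused 4, chow mannitol 3 and 4; up to 0.0588), and 0 of the 5 were called with the authors' deposited values.

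Chow glucose hearts differed from chow non-perfused hearts in 3 genes, 5.36% against 9.54% of all tested genes (5.43% higher, 4.1% lower), and 7 had an unadjusted p under 0.05, against 20.5% of all. Kcnip2 rose again, to 244%, 238%, 226%, 248% and 225% in glucose hearts, against 165% to 208% in the same non-perfused hearts, a change of 0.39 (SE 0.10, adjusted p = 0.0136). Kcna2 fell by 0.64 (SE 0.11, adjusted p = 0.000259) and Kcne3 stood at -1.33 (SE 0.27, adjusted p = 0.001). Only 1 of 5 glucose arrays had Kcne3 above background, against 4 of 5 in the chow non-perfused hearts through which it entered the test, so that size is uncertain. Values did not overlap for 3 of the 56, Kcna2 and Kcnip2 among them, against 9.36% of all genes. The Kcna2 call was the only one of the 3 also made with the authors' deposited values. Both chow comparisons share the 5 non-perfused hearts.

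In sucrose-fed rats, mannitol hearts differed from non-perfused hearts in 2 genes, 3.57% against 10.9% of all tested genes (5.54% higher, 5.36% lower), and glucose hearts in 4, 7.14% against 8.71% (5.54% higher, 3.17% lower). Unadjusted p was under 0.05 for 11 genes with mannitol, against 23% of all, and for 8 with glucose, against 20.4%. Kcns3 rose in both, by 0.52 with mannitol (SE 0.12, adjusted p = 0.00624) and by 0.74 with glucose (SE 0.12, adjusted p = 0.000134), 1.43-fold and 1.67-fold. Kcnmb4 fell in both, by 0.49 (SE 0.15, adjusted p = 0.0345) and by 0.63 (SE 0.15, adjusted p = 0.00676). Kcna2 fell with glucose by 0.46 (SE 0.11, adjusted p = 0.00954) and stood at -0.32 with mannitol (adjusted p = 0.0716).

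Kcne3 was above background on none of the sucrose glucose arrays and on 3 of 5 sucrose non-perfused arrays. It was lower with glucose (measured mean log2 levels -6.34 and -4.87, adjusted p = 0.000387), but the size of that fall is uncertain. Under alternative processing, omitted single arrays aside, the change ran between -1.71 and -0.33. With mannitol Kcne3 stood at -0.62 (adjusted p = 0.154). Non-overlapping values were found for 1 gene with mannitol (Kcns3) and for 3 with glucose (Kcns3, Kcne3 and Kcna2), against 9.08% and 8.06% of all genes. The mannitol calls changed with the arrays used. Without the 4 arrays of noisy negative controls neither Kcns3 (adjusted p = 0.108) nor Kcnmb4 (adjusted p = 0.324) was called. Kcnmb4 was lost in 8 of 10 omissions of 1 array (adjusted p up to 0.114). In the glucose comparison 0 of the 4 calls were made with the authors' deposited values, where Kcne3 came closest (adjusted p = 0.0536).

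**Figure D4:**
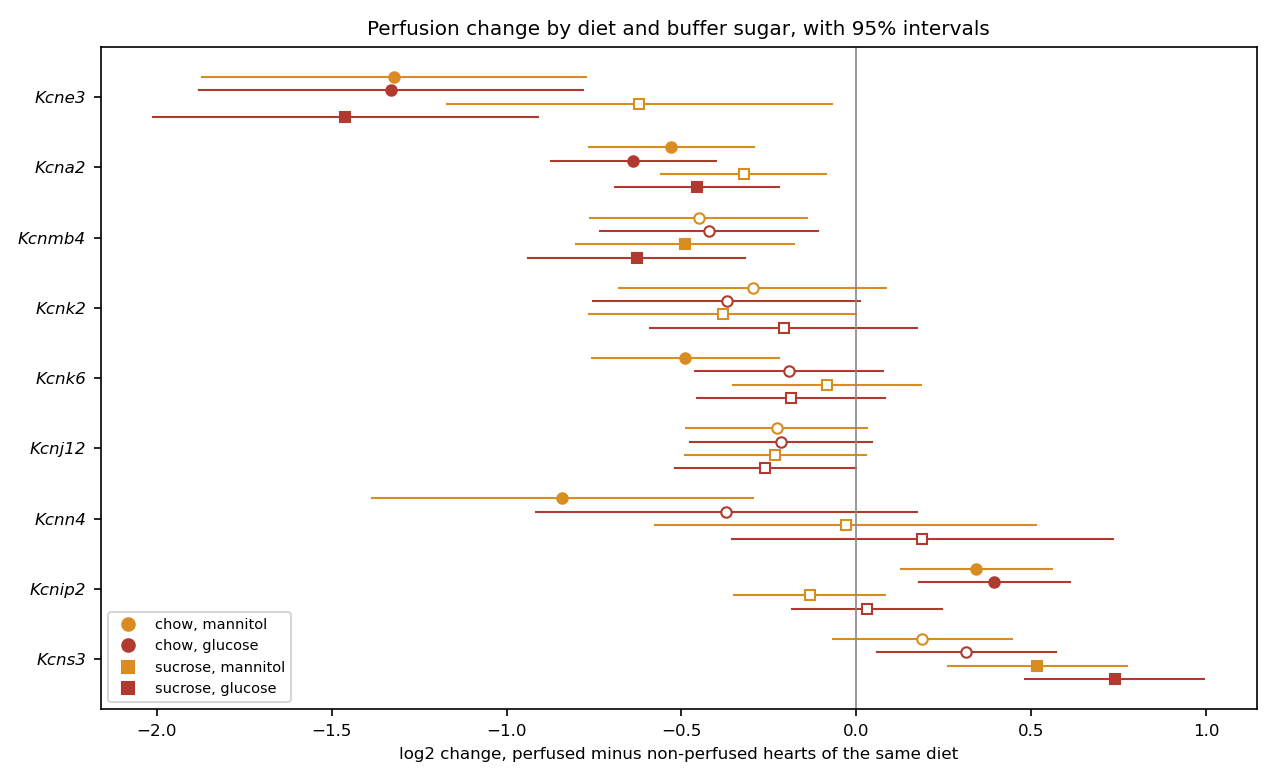
Log2 change and 95% interval of 9 potassium channel genes called in at least 1 comparison, for each perfused group minus the non-perfused group of its diet (5 against 5 arrays); circles are chow, squares sucrose, and filled symbols passed the adjusted threshold. Kcnip2 lies above 0 in the chow comparisons (0.34 and 0.39) and near 0 in the sucrose comparisons, and Kcns3 is highest in sucrose glucose hearts (0.74).

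Kcnip2 and Kcns3 were called in one diet each, and the difference between diets was tested as an interaction of diet with perfusion. For Kcnip2 the perfusion change was lower by 0.42 in sucrose than in chow hearts (SE 0.13, unadjusted p = 0.00299), and within the 4 slides the difference ran between -0.51 and -0.27. For Kcns3 it was higher by 0.38 in sucrose hearts (SE 0.15, unadjusted p = 0.0206), between -0.05 and 0.67 within slides. Neither passed adjustment over all genes (adjusted p = 1.000 for both), and 0 of the 56 potassium channel genes and 0% of all genes did. At an unadjusted p under 0.05 limma counted 4 of the 56 (Kcnip2, Kcnj11, Kcns3 and Kcnn4), 7.14% against 3.84% of all tested genes. A difference between the diets in these responses was therefore not shown.

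The transient outward current of rodent ventricle is carried by Kcnd2 and Kcnd3 with Kcnip2, and in slower form by Kcna4. Kcnd2 changed on average by 0.20 (95% interval -0.06 to 0.46), Kcnd3 by 0.15 (-0.16 to 0.46) and Kcna4 by -0.00 (-0.14 to 0.13), none called. Kcnip2 over both diets stood at 0.16 (adjusted p = 0.0787). Kcnd2 ranged over 67.1% to 98.3% in chow mannitol, 63.6% to 96.3% in chow glucose, 85.7% to 123% in sucrose mannitol and 61.0% to 110% in sucrose glucose hearts, against 42.4% to 132% in chow and 68.8% to 107% in sucrose non-perfused hearts. Perfused and non-perfused hearts overlapped throughout.

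Delayed rectifier genes other than Kcna2 were not called. Kcna5, the pore of an ultrarapid current, stood at -0.39 (95% interval -0.74 to -0.05, adjusted p = 0.0992) and was above background on 22 arrays. Kcnq1, the pore of the slow current, stood at 0.12 (0.01 to 0.23, adjusted p = 0.129), with 855% to 1390% over all arrays. Its second, dimmer probe gave 0.17 and was called in the separate fit by probe (adjusted p = 0.00554). Kcnh2, the pore of the rapid current, was at 0.01 (-0.18 to 0.20). Its second, dimmer probe gave 0.18, not called in the fit by probe (adjusted p = 0.0565). The accessory subunits of these pores, Kcne1 (-0.45, adjusted p = 0.299), Kcne2 (-0.17, adjusted p = 0.346) and Kcne4 (0.08, adjusted p = 0.496), were not called, and Kcne1 varied widely, between 3.89% and 36.2% in non-perfused hearts.

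Channels that open when ATP falls are built from Kcnj11 or Kcnj8 pores and the sulfonylurea receptors Abcc8 and Abcc9. Kcnj11 was at 0.00 (95% interval -0.11 to 0.11) and Kcnj8 at -0.10 (-0.22 to 0.02) on average. Kcnj11 was 38.4% to 62.4% over the perfused hearts, against 42.4% to 58.1% over the non-perfused hearts. Abcc8 and Abcc9 stood at 0.08 (adjusted p = 0.441) and 0.07 (adjusted p = 0.381). The pores of the acetylcholine-activated current, Kcnj3 (-0.09, interval -0.22 to 0.04) and Kcnj5 (-0.06, -0.21 to 0.10), and the background leak channel Kcnk3 (-0.10, -0.27 to 0.08) were not called.

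Of the channels known from vessels, Kcnma1, Kcnmb1, Kcnn3 and Kcnj8 were not called in any comparison. Kcnn1, a small-conductance calcium-activated channel, stood at 0.34 on average (SE 0.13, adjusted p = 0.0712) and was above background on 25 arrays. Kcnab1 and Kcnab2, beta subunits of the Kcna pores, were at -0.15 (adjusted p = 0.632) and 0.02 (adjusted p = 0.974).

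Where a gene had several tested probes they did not always move alike. In 13 genes with more than 1 tested probe, 4 (Kcna6, Kcnk2, Kcnk13 and Kcnmb2, named after their values were seen) had averaged perfusion changes of opposite sign. Kcnk13, a two-pore channel, had its brightest probe at 0.03, not called. Another of its probes stood at -0.31 in the fit by probe (adjusted p = 0.0233), while no probe of Kcna6 or Kcnmb2 was called.

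Glucose was compared with mannitol within each diet to ask what the sugar itself does. None of the 56 potassium channel genes was called in chow hearts, where 0% of all genes were, or in sucrose hearts, where 0.00545% were (1 gene). At an unadjusted p under 0.05 limma counted 2 of 56 in chow (3.57%, against 3.88% of all genes) and 1 of 56 in sucrose (1.79%, against 4.76%). Values of the 2 buffers overlapped for all 56 genes in both diets, whereas 0.764% of all genes did not overlap in chow and 0.796% in sucrose hearts. The smallest p in chow hearts belonged to Kcna4 (-0.28, unadjusted p = 0.0172), Kcnk6 (0.30, unadjusted p = 0.0318) and Kcna6 (-0.26, unadjusted p = 0.0606). Kcna4 was 15.8%, 12.8%, 13.2%, 13.6% and 14.5% with glucose, against 15.0%, 18.7%, 16.2%, 16.5% and 18.6% with mannitol, and the groups overlapped by 1 glucose heart. In sucrose hearts Kcne3 came first (-0.84, unadjusted p = 0.00411, adjusted p = 0.996), and Kcnj14 stood at -0.51 (unadjusted p = 0.0696).

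For the 29 genes above background on all arrays, the 95% intervals of the glucose difference had a median width of 0.27 to either side. They lay within a change of 1 in either direction for 28 of 29 genes in chow and 28 of 29 in sucrose hearts, the exceptions being Kcng1 in chow and Kcnj14 in sucrose hearts. They lay within a change of 0.5 in either direction for 23 of the 29 in chow and 24 of the 29 in sucrose hearts.

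The sucrose diet was compared with chow in each perfusion state, and none of the 56 genes was called in mannitol, glucose or non-perfused hearts, against 0.00545%, 0% and 0% of all genes. Limma's unadjusted p was under 0.05 for 6, 1 and 4 of the 56, 10.7%, 1.79% and 7.14%, against 7.83%, 4.27% and 3.36% of all genes. In mannitol hearts Kcnip2 was 153%, 205%, 195%, 195% and 170% in sucrose-fed rats, against 231%, 243%, 218%, 215% and 233% in chow-fed rats, a difference of -0.32 without overlap (unadjusted p = 0.00543, adjusted p = 0.469).

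Kcnj14, an inward rectifier, was 18.2%, 29.1%, 12.6%, 17.1% and 25.5% in sucrose mannitol hearts, against 9.18%, 12.4%, 11.5%, 12.4% and 11.2% in chow mannitol hearts. The difference was 0.80 (unadjusted p = 0.00609, adjusted p = 0.469). All sucrose values lay above all chow values, and these 2 genes were the only ones of the 56 without overlap there, against 1.81% of all genes. Kcnk6 followed at 0.31 (unadjusted p = 0.0235). In non-perfused hearts Kcnt1 alone did not overlap (0.529% of all genes), and in glucose hearts none of the 56 did (0.846%). In non-perfused hearts the smallest p belonged to Kcnn4 (-0.72, unadjusted p = 0.0111), Kcna2 (-0.28, unadjusted p = 0.0195) and Kcns3 (-0.28, unadjusted p = 0.0311), and in glucose hearts to Kcne2 (0.41), Kcnj8 (-0.19) and Kcnh2 (0.30), all with adjusted p = 1.000. The diets' mannitol arrays lay in different slide rows, with 4 of 5 sucrose arrays in the second and all chow arrays in the first.

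**Figure D5:**
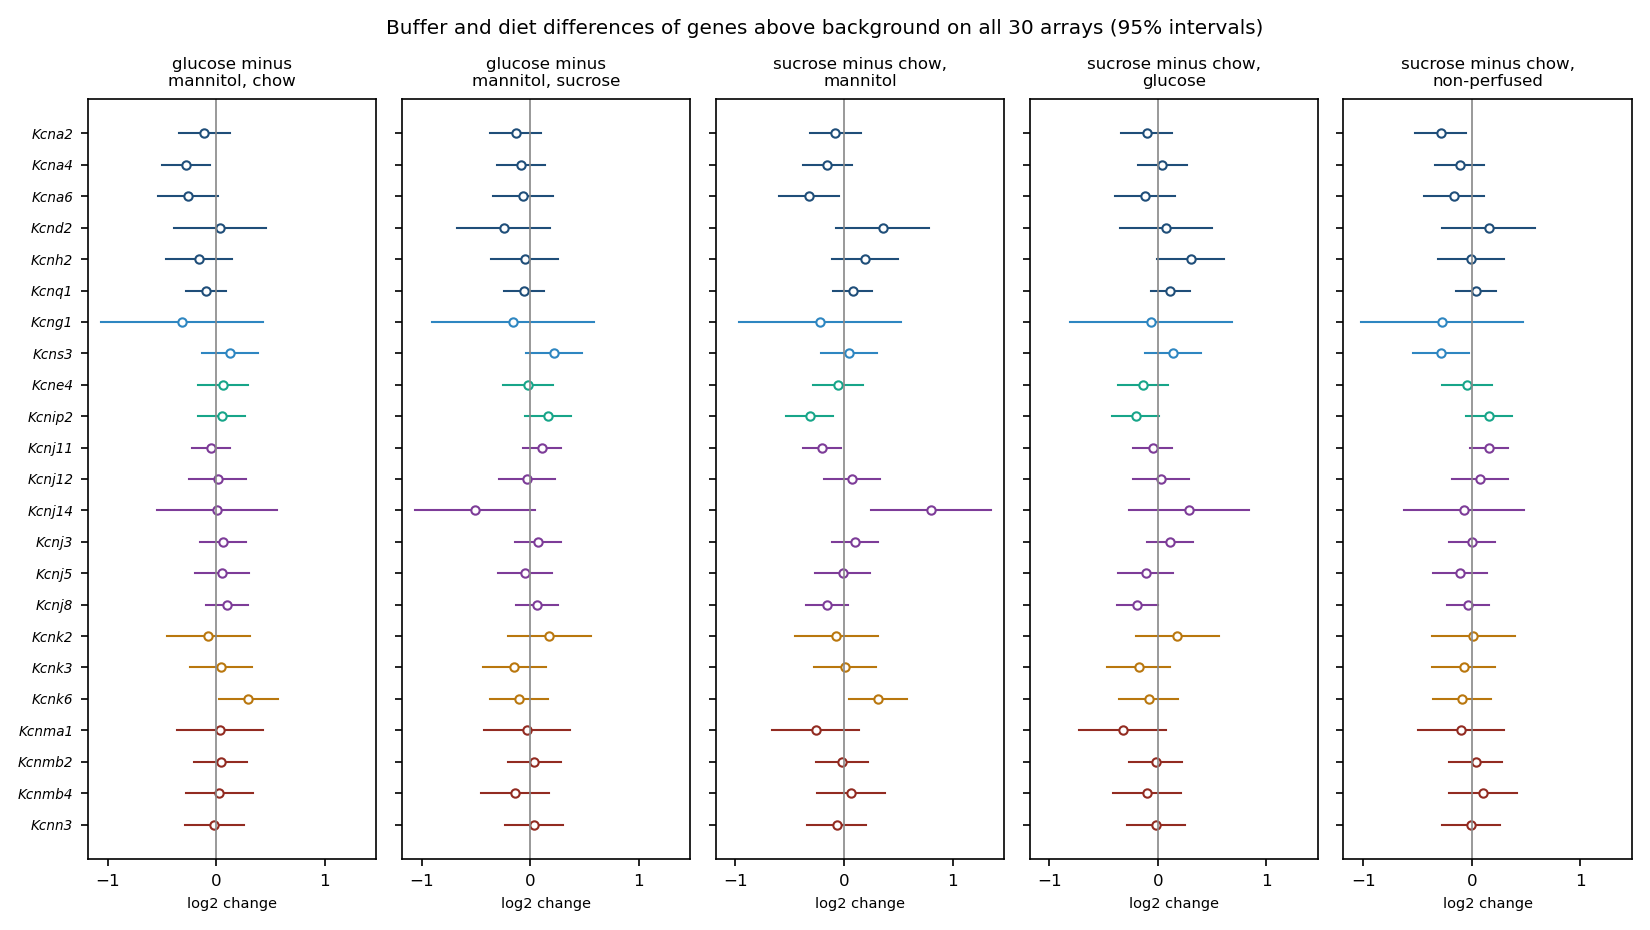
Log2 difference and 95% interval for glucose minus mannitol in each diet and for sucrose minus chow in each perfusion state, for the potassium channel genes named in the text that were above background on all 30 arrays (5 against 5 arrays; colours mark the channel families). No gene passed the adjusted threshold, and Kcnj14 in mannitol hearts, at 0.80, lies farthest from 0.

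Genes that work with these channels were read from lists made with earlier results of these arrays known. Of 23 tested action potential channels, pumps and exchangers, 2 rose and 2 fell on average with perfusion, against 10.1% higher and 12.2% lower among all tested genes (median change 0.00, against -0.04 for all genes). Trpm4, a calcium-activated cation channel, rose by 0.45 (SE 0.10, adjusted p = 0.00118), and the calcium channel subunit Cacnb2 rose by 0.28 (SE 0.08, adjusted p = 0.00917). The T-type calcium channel Cacna1h fell by 0.72 (SE 0.20, adjusted p = 0.00941) and the pacemaker channel Hcn4 by 0.59 (SE 0.17, adjusted p = 0.0138). Cacna1h was not called without the 4 noisy arrays (adjusted p = 0.0594), and with the authors' deposited values Cacna1h, Trpm4 and Cacnb2 were not called (adjusted p = 0.0855, 0.154 and 0.453) while Hcn4 was (adjusted p = 0.0289).

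Of 11 tested subunits and anchors of potassium channels none was called in any comparison (median averaged change -0.08). Of 7 tested transcription factors known to control cardiac potassium channel genes in rodents, 2 fell and none rose, against 12.2% lower and 10.1% higher among all tested genes: Klf15, an activator of Kcnip2 in mouse heart, by 0.21 (SE 0.06, adjusted p = 0.0103) and Nfatc3 by 0.15 (SE 0.06, adjusted p = 0.0462). Neither was called with the authors' deposited values (adjusted p = 0.389 and 0.336), and Klf15 was not called without the 4 noisy arrays (adjusted p = 0.068). Klf15 lay at 350% to 482% in perfused hearts, against 410% to 533% in non-perfused hearts, with overlap. Irx5, a repressor of Kcnd2 in mouse heart, stood at -0.65 (adjusted p = 0.075), and its relative Irx3 was not analysed here. With the mean of its probes Nfatc3 stood at 0.01 and was not called (adjusted p = 0.977).

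Markers of blood cells moved with perfusion beside the changes above. All 3 red cell markers fell (median change -5.73), and their summed level was 471% to 7581% over the perfused hearts, against 42757% to 68870% over the non-perfused hearts. Both neutrophil, both B cell and both platelet markers tested also fell, and S100a8 and Cd79b were above background on 0 of 20 perfused arrays, against 7 of 10 non-perfused arrays. The 4 atrial muscle markers were not called (median change -0.75). Among neuron and Schwann cell markers 1 of 6, Npy, fell (by 4.40), and the summed level of the 6 was 208% to 331% in perfused hearts, against 267% to 454% in non-perfused hearts. All 4 macrophage markers rose (0.22 to 0.94). Of 5 tested markers each, 1 endothelial (Cldn5), 1 smooth muscle (Cnn1) and 1 fibroblast marker (Dcn) rose, and 1 pericyte marker (Higd1b) fell. Among all tested genes 10.1% were higher and 12.2% lower, and these single calls are not read as shifts of a cell type. Cnn1 met the detection mark in the perfused groups only, so its rise was favoured by the filter. The part of any of these cell types in the falls of Kcne3, Kcnn4, Kcna2 and Kcnmb4 was not tested. In whole ventricle, fewer cells of a type and less RNA per cell cannot be told apart. Ventricular muscle markers kept averaged changes between -0.13 and -0.06, none called.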

How the data were processed

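Levels came from 30 one-colour Agilent arrays. The authors deposited scanner files whose intensity values (processed signal, background-subtracted by Agilent Feature Extraction 11.0.1.1 per the file headers, 10.3 per the submitters' processing notes) are not normalized between arrays. They also deposited a log2 value table with array medians of 7.23 to 7.24 and 119283 empty cells; its scaling is not given in the sources used here. It correlated with log2 background-subtracted signal at 0.995 or more on every array.

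From the intensities, outlier-flagged and control spots were dropped, spots of a probe were averaged on the log2 scale, and each array's 75th percentile was subtracted. Accessions named 18355 of 30367 probes through RefSeq's gene table (GRCr8), and 12012 stayed unnamed. A gene was its brightest probe, and its other probes were tested in a separate fit by probe with its own adjustment. In limma 3.58.1 (R 4.3.3), 1 mean per group was fitted to 30 arrays (median total degrees of freedom 26.3), 11 comparisons were tested, and p-values were adjusted by Benjamini-Hochberg over 18332 genes at 0.05. The limma steps were tested on simulated data. The labels call the 5 hearts of a group biological replicates. Alternatives covered normalization, background (normexp, offset 50, on median foreground signals because the files hold no mean), the authors' table, filters, probe choice, slide, replicate number, samples fitted and omitted arrays. The number of arrays limits the precision.

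The genes named are, apart from results not reported here, every member called in some comparison, members of known cardiac and vessel currents whatever their result, the 3 members of smallest p where none was called, and called partner genes. Members and lists were chosen with earlier results of these data known.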

Additional observations from a re-analysis of the deposited data

Results flagged for a closer look

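In 10 of 210 groups of 5 arrays, over 35 named potassium channel genes, 1 array stood apart from the others by Dixon's ratio (critical value 0.71). That is 4.76%, and chance gives about 1 group in 20. Of these, 3 concern sucrose mannitol 1, the array alone on its slide: Kcna4 was lowest there at 10.8% (next 16.2%), Kcnq1 highest at 1390% (next 1086%) and Kcnn4 highest at 3.4% (next 2.78%). Sucrose glucose 1 was lowest for Kcnmb4 at 10.4% (next 14.2%) and for Kcne2 at 6.77%. Chow glucose 4 was highest for Kcne3 at 3.26% (next 1.36%), not above background, and chow glucose 2 was lowest for Kcnk2 at 148% (next 212%). In chow mannitol hearts, array 2 was lowest for Kcnh2 at 87% (next 123%) and array 4 lowest for Kcnn1 at 4.03% (next 7.85%), not above background. Chow non-perfused 5 was highest for Kcna6 at 32.9% (next 23.6%).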

How the results depend on the processing

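The authors' deposited values changed the counts most: 0 potassium channel genes were called in chow mannitol hearts against 5, 1 in chow glucose against 3, 0 in sucrose mannitol against 2, 0 in sucrose glucose against 4, and 2 on average against 8. Normexp gave 2 in chow mannitol and 0 in sucrose mannitol hearts, no filter gave 3 and 1, and fitting only the groups compared gave 2 in sucrose glucose hearts; that fit has no value for the averaged and interaction comparisons. Without the 4 noisy arrays, and also without the array alone on its slide (both chosen after the arrays were seen), sucrose mannitol had 0. Leaving out 1 array gave 2 to 5 (chow mannitol), 3 to 4 (chow glucose), 1 to 3 (sucrose mannitol), 4 to 5 (sucrose glucose), 5 to 10 (averaged) and 0 in the other 6 comparisons. Of 814 alternative values of single potassium channel genes, 272 belonged to results called with the main processing. Of these 272, 221 kept the call, 51 lost it and 0 changed sign. Among the values not called with the main processing, 12 gained a call and 22 changed sign without one. Nfatc3 moved to 0.0141 with the mean of its probes (adjusted p = 0.977), and Kcnk2 was then not called (adjusted p = 0.732).

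Over all genes, counts under the authors' values were 361 against 1552 (chow mannitol), 421 against 1748 (chow glucose), 413 against 1999 (sucrose mannitol), 447 against 1597 (sucrose glucose) and 1143 against 4081 (averaged), with 86.1%, 72%, 88.9%, 91.7% and 74.5% of calls higher against 57%, 57%, 50.8%, 63.6% and 45.2%. Normexp gave 958, 1116, 1008, 941 and 2688, with 64.2% higher in sucrose mannitol. Only the groups compared gave 1070 in sucrose mannitol (62.9% higher) and 1046 in sucrose glucose, and sucrose mannitol had 1252 without the noisy arrays and 1022 without the lone one too. The single all-gene calls for glucose in sucrose hearts and for diet with mannitol moved between 0 and 2. The causes were not tested.

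Same-numbered arrays did not pair (mean residual correlation -0.038, against 0.00998 for other numbers; 4 of 30 arrays matched their own number best). With the replicate block the potassium channel counts were 5, 3, 2, 4 and, averaged, 7 (Kcnk2 adjusted p = 0.0565), and 0 elsewhere. Dim probes limit Kcne3 and Kcnn4: these were not above background on all arrays.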
